A study of Mus musculus with 18 samples.

Results

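A set of 7 lysosomal proteases of the cathepsin family (Ctsb, Ctsc, Ctsd, Ctsh, Ctsl, Ctss and Ctsz) and 3 cystatins, which inhibit such proteases (Cst3, Cst7 and Cstb), were followed by gene symbol in mouse striatal microglia. These are 10 genes of the 55536 in the count table, and all 10 reached 1 CPM, a count scaled to the size of the library, in every sample. The samples were 18 preparations of cells pulled with CD11b beads from perfused, mechanically dissociated striatum of adult C57BL/6 mice (C57BL/6J by the study's methods). The study asked how loss of Tyrobp, the adaptor through which TREM2 and other myeloid receptors signal, changes microglia of a Huntington's disease model. The groups were WT (5 samples, both alleles intact), Tyrobp-KO (3 samples, Tyrobp deleted on both chromosomes), Q175 (5 samples, 1 copy of the knock-in Htt allele with an expanded CAG repeat, Tyrobp intact) and Q175;Tyrobp-KO (5 samples, both changes). The deletion and the Htt allele were present in every cell of the mice from birth, and no group received an agent. By the labels 1 of 5 WT, 2 of 3 Tyrobp-KO, 4 of 5 Q175 and 2 of 5 Q175;Tyrobp-KO samples came from females.

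Cathepsins degrade proteins in the acidic lumen of endosomes and lysosomes, where microglia break down what they engulf. Most are cysteine proteases, made as inactive proenzymes. Cathepsin D is an aspartic protease, and cathepsin C acts by activating other proteases through removal of dipeptides. Cystatins block cysteine cathepsins by occupying the active site. Cystatin C (Cst3) is secreted, cystatin B (Cstb) stays in the cytosol, and cystatin F (Cst7) reaches lysosomes, where it is known to inhibit cathepsins C, H, L and S. Cst7 is a familiar marker of disease-associated microglia, a state reached through TREM2 and Tyrobp.

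Cst7 (ENSMUSG00000068129) lies on the plus strand of chromosome 2 at chr2:150570415-150578944 of GRCm38. The bases before the start are shown for 3 members, Cst7 because it was the member that changed most, Ctsc and Ctss because they are its targets and varied together over the samples. RefSeq windows for GRCm38.p6 were matched by symbol for 7 of the 10 members. Capitals mark the letters AGGAAGT, a sequence of the kind bound by ETS factors such as PU.1, on either strand (ACTTCCT on the other).
Cst7, chr2:150570165-150570414, plus strand: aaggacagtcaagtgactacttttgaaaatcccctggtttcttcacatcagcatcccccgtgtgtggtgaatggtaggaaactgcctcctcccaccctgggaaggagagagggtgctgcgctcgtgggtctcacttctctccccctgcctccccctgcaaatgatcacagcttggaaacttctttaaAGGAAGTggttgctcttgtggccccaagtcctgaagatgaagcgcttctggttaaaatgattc
Ctsc, chr7:88277835-88278084, plus strand: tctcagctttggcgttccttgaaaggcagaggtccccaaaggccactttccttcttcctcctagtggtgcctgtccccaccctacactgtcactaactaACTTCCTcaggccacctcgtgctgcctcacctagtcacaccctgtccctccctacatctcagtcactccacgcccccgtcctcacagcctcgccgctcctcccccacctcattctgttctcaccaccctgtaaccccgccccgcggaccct
Ctss, chr3:95526536-95526785, plus strand: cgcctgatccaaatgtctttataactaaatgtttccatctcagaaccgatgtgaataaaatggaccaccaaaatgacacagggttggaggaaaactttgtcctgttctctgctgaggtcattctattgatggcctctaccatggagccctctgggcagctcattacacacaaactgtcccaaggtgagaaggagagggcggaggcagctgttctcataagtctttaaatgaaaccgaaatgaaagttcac

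AGGAAGT stood in the Cst7 window, where it began 63 bases before the start, and on the other strand of the Ctsc window, but not in that of Ctss. Of all 32851 promoter windows of 250 bases, 7.69% held it on either strand, so 2 of 7 members is a description of these windows only. The letters CACGTG, the E-box core of the element that TFEB binds in lysosomal genes, read the same on both strands and stood in the full windows of Ctsd and Ctsl, bases within annotated exons included, and in 6.02% of all windows. The longest stretch of the Ctsl window free of exons, 185 bases, does not hold them. No factor's binding was measured.

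The genotype was checked first. Tyrobp (chr7:30413760-30417585) had 339.6 ± 116 CPM (SD, n = 5) in WT and 284 ± 65.6 CPM (SD, n = 5) in Q175 microglia. It had 20.04 ± 2.67 CPM (SD, n = 3) in Tyrobp-KO and 13.1 ± 2.15 CPM (SD, n = 5) in Q175;Tyrobp-KO microglia, so every library matched its label for the deletion. Tyrobp does not tell WT from Q175, and the Htt allele was not checked. Ctsc and Ctsd share chromosome 7 with Tyrobp, at distances of 57.9 and 112 Mb. Total counts were between 11260410 and 29771983 per sample (median 18342646), and intervals cover no more than the spread between these samples. The level of a marker list was the geometric mean over its genes of normalized counts plus 1, which is not in CPM. The 16 markers of microglia, such as Tmem119 and P2ry12, each reached 1 CPM in all 18 samples. Their level exceeded that of each of 8 lists for other cell types in every sample. The nearest were oligodendrocyte markers, which stayed at least 2.34-fold below, and astrocyte markers, at least 4.48-fold below. Because these are bulk preparations, fewer microglia and less RNA per microglial cell cannot be told apart.

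Levels between genes were compared as CPM per kb of exonic length. Cst3 was the highest member, at 5483 ± 1460 CPM per kb (SD, n = 18), followed by Ctss, the cathepsin that stays active at neutral pH, at 2444 ± 722, and Ctsd at 808 ± 234. Ctsz, a carboxypeptidase, had 259 ± 69.1 CPM per kb and Ctsb, an abundant endopeptidase and carboxypeptidase, 195 ± 41.5. Next came Ctsl at 63.1 ± 20.8, Ctsc at 57.0 ± 16.4 and Ctsh, an aminopeptidase, at 55.5 ± 13.2, then Cstb at 16.1 ± 6.47 and Cst7 at 9.53 ± 8.52 CPM per kb. Most steps of this order held in all 18 samples. Ctsz was above Ctsb in 17 of 18, Ctsl above Ctsc in 12, Ctsc above Ctsh in 7 and Cstb above Cst7 in 14. The lowest 3 cathepsins, and likewise the lowest 2 cystatins, were thus not separated from each other by their spread. With the length of the principal transcript in place of all exons, Ctsh and Ctsc stood above Ctsl. Exons of Ctsl (with Gm47123 and Gm49230), Ctsb (with Fdft1), Ctsd (with Gm49369) and, by few bases, Ctsz (with Nelfcd) overlap those of other genes. The libraries did not keep the strand, so reads there cannot be assigned with certainty.

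**Figure D1:**
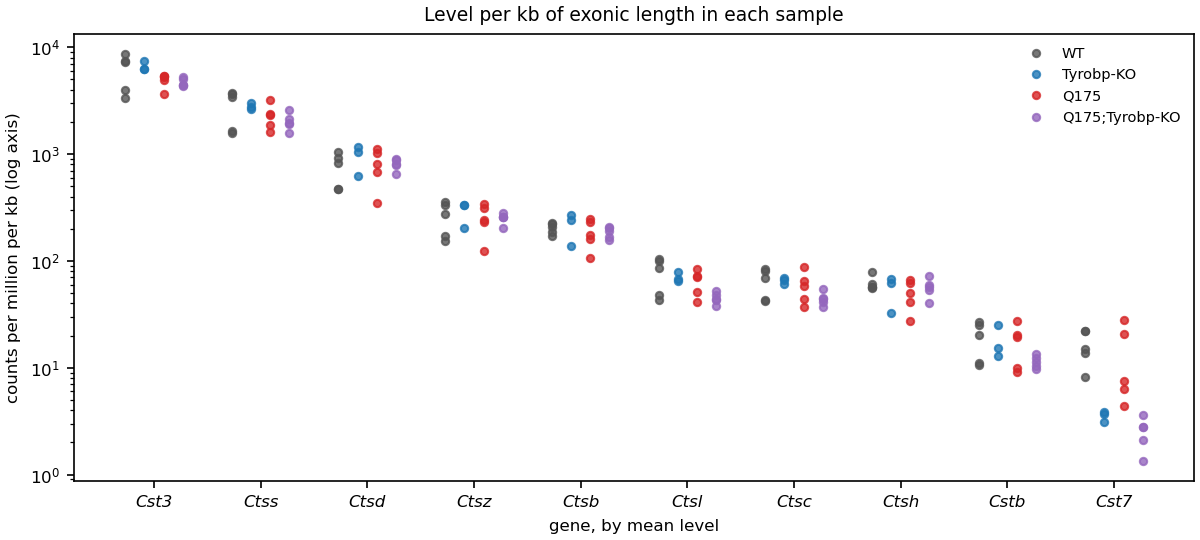
Each point is 1 sample's level of a gene in CPM per kb of exonic length, on a log axis, coloured by group, with genes ordered by their mean over all 18 samples. Cst3 and Ctss lead with means of 5483 and 2444, and Cst7, at the right, has the widest spread and separates into higher points for WT and Q175 and lower points for both groups without Tyrobp.

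Cst3 alone made up 99.0 to 99.8% of the summed level of the 3 cystatins per kb, and Cst7 between 0.0303 and 0.55%. The spread within groups differed between members as well. The pooled SD of log2 CPM within the 4 groups was widest for Cst7, at 0.76, and smallest for Ctsb, at 0.35. In WT the means of Cst7 and Cstb were 16.3 and 18.7 CPM per kb, and the 4 samples with more Cst7 than Cstb all had Tyrobp.

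Cst7 was lower in every sample without Tyrobp than in any sample with it. WT samples had 21.9 (replicate 1), 13.6 (replicate 2), 7.998 (replicate 6), 21.9 (replicate 7) and 14.8 CPM (replicate 8). In Q175 replicates 3, 4, 9, 14 and 17 it had 7.39, 6.25, 4.31, 20.6 and 27.5 CPM. Q175 microglia thus split into 3 low and 2 high samples, and WT replicate 6, the lowest of its group, was near the highest of those 3. Tyrobp-KO replicates 15, 19 and 20 had 3.63, 3.04 and 3.84 CPM, and Q175;Tyrobp-KO replicates 5, 11, 12, 13 and 16 had 1.33, 2.75, 2.72, 2.05 and 3.56 CPM. The highest value without Tyrobp, 3.84 CPM, was below the lowest with it, 4.31 CPM. The least covered value, that of Q175;Tyrobp-KO replicate 5, rested on 22 reads.

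Over both backgrounds, in an additive model of the Q175 allele and the deletion on all 18 samples, Cst7 fell by 2.34 on the log2 scale with Tyrobp deletion (SE 0.33, 95% interval from -3.03 to -1.65). This is a 5.07-fold lower level, with an adjusted p of 0.00197 by edgeR's quasi-likelihood test. Of the 10 members, Cst7 alone was called at a false discovery rate of 0.1, where 0.161% of the 18613 genes tested were called. At an unadjusted p under 0.05 it was again the only member, against 8.81% of all genes. DESeq2 called the same member and 0.811% of all genes. Of all genes tested, 0.0698% had CPM ranges that did not overlap between samples with and without Tyrobp, and Cst7 was one of 13.

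The size of the Cst7 difference was close in both backgrounds, although neither 2-group fit called it. In Q175;Tyrobp-KO against Q175 the log2 fold change was -2.40 (SE 0.48, 95% interval from -3.45 to -1.35), with an edgeR adjusted p of 0.368. In Tyrobp-KO against WT it was -2.20 (SE 0.36, 95% interval from -2.99 to -1.40), with an edgeR adjusted p of 0.239. In neither did the ranges overlap, which held for 0.853% of genes in the first comparison and 4.5% in the second. DESeq2 called Cst7 in both, with an adjusted p of 0.000407 in the first and 3.08e-06 in the second. DESeq2 called 0.227% and 0.932% of all genes there, and edgeR 0.0111% and 0.0222%. The comparisons of groups share samples, so their values are not independent. The interaction of the Q175 allele with Tyrobp deletion was -0.13 for Cst7 (95% interval from -1.47 to 1.21, edgeR adjusted p = 0.968), an interval wide enough to hold sizeable differences either way.

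The Q175 allele itself came with no called difference in Cst7. It was 16.03 ± 5.94 CPM (SD, n = 5) in WT and 13.2 ± 10.2 CPM (SD, n = 5) in Q175, a log2 fold change of -0.29 (edgeR adjusted p = 0.999, 95% interval from -1.30 to 0.72). That estimate moved to -1.13 with sex as a term and to -2.07 with the level of non-microglial markers as a term, again without a call by edgeR. The 2 high Q175 samples, replicates 14 and 17, had astrocyte marker levels of 3155 and 1120, defined as above and not in CPM. The 3 low ones had between 1018 and 1414. The astrocyte marker level in WT was 506 to 748. Without Tyrobp, Cst7 was 3.503 ± 0.413 CPM (SD, n = 3), and 2.48 ± 0.835 CPM (SD, n = 5) with the Q175 allele added. That log2 fold change was -0.50 (edgeR adjusted p = 0.513), and 1 of 15 pairs of samples had the Q175;Tyrobp-KO sample higher.

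**Figure D2:**
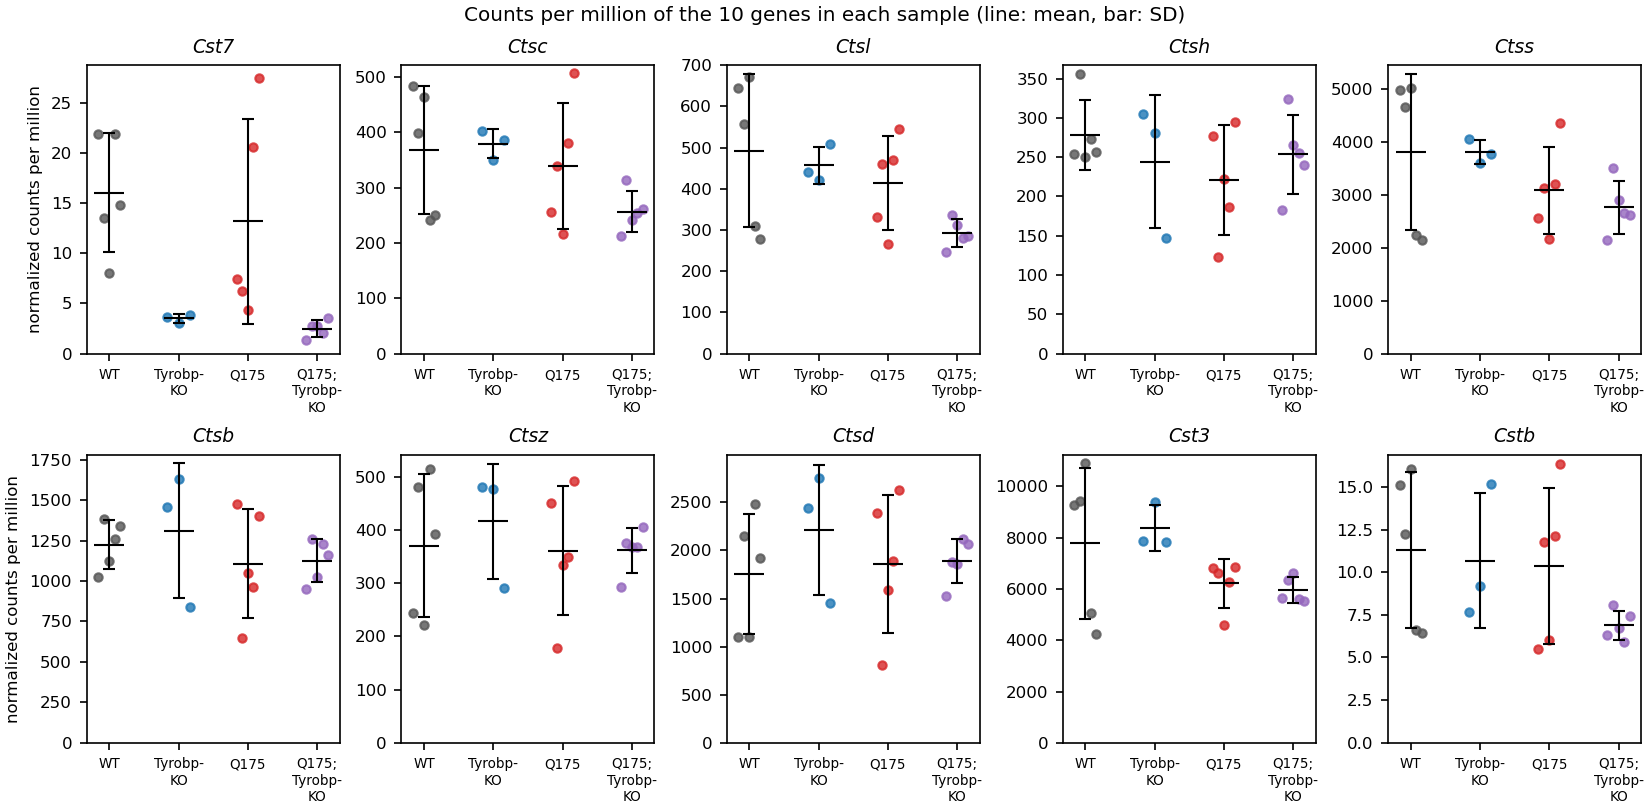
Each panel gives 1 gene, with CPM on a vertical axis that starts at 0 and 1 point per sample in each of the 4 groups, the long line marking the mean and the bar the SD. Cst7 lies between 1.33 and 3.84 CPM in the groups without Tyrobp and between 4.31 and 27.5 CPM in the others, while the 7 cathepsins overlap between samples with and without Tyrobp.

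The target cathepsins did not follow Cst7 down in every sample. Ctsc, the dipeptidyl peptidase, had 242 to 484 CPM in WT (median 399), 349.8 to 402 in Tyrobp-KO (median 387), 216 to 507 in Q175 (median 339) and 213 to 314 in Q175;Tyrobp-KO microglia (median 254). Ctsl, an endopeptidase, had 279 to 672 CPM in WT (median 557), 421 to 508 in Tyrobp-KO (median 442), 266 to 546 in Q175 (median 461) and 247 to 336 in Q175;Tyrobp-KO (median 286). Both genes were lowest, and least variable among the groups of 5, in Q175;Tyrobp-KO microglia. Over both backgrounds Ctsc had a log2 fold change with Tyrobp deletion of -0.25 (SE 0.17, edgeR adjusted p = 0.724) and Ctsl of -0.38 (SE 0.19, edgeR adjusted p = 0.577). The 95% interval of Ctsl, from -0.77 to 0.01, does not reach the estimate for Cst7.

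Ctss, which trims the invariant chain in antigen presenting cells, had 4988, 4653, 5022, 2245 and 2152 CPM in WT replicates 1, 2, 6, 7 and 8. It had 4061, 3608 and 3773 CPM in the 3 Tyrobp-KO samples, 2167 to 4352 in Q175 (median 3138) and 2145 to 3509 in Q175;Tyrobp-KO (median 2656). WT was split into 3 high samples and 2 samples near the lowest of the series. Ctsh had 251 to 356 CPM in WT, 147 to 305 in Tyrobp-KO, 122 to 295 in Q175 and 183 to 324 in Q175;Tyrobp-KO. Its groups overlapped throughout. The log2 fold change with Tyrobp deletion was -0.14 for Ctss (SE 0.19, edgeR adjusted p = 0.871) and -0.01 for Ctsh (SE 0.17, edgeR adjusted p = 0.995).

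The cathepsins that cystatin F is not chiefly known to inhibit had no called difference with the deletion either. Ctsd had 1103 to 2480 CPM in WT (median 1926), 1455 to 2754 in Tyrobp-KO (median 2440), 811 to 2630 in Q175 (median 1892) and 1532 to 2120 in Q175;Tyrobp-KO (median 1878), so its groups overlapped. Its log2 fold change over both backgrounds was 0.12 (95% interval from -0.31 to 0.55). Ctsb was at 0.01 (95% interval from -0.30 to 0.32) and Ctsz at 0.04 (95% interval from -0.34 to 0.42). The 7 cathepsins had a median log2 fold change of -0.01, and all 18613 genes one of -0.02. None of the 7 was called, and none had an unadjusted p under 0.05 in this fit.

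Among the other cystatins, Cst3 had 4233 to 10914 CPM in WT, 7838 to 9398 in Tyrobp-KO, 4580 to 6842 in Q175 and 5526 to 6633 in Q175;Tyrobp-KO. Cstb had 6.41 to 16.1 CPM in WT, 7.68 to 15.2 in Tyrobp-KO, 5.47 to 16.4 in Q175 and 5.93 to 8.05 in Q175;Tyrobp-KO. With Tyrobp deletion the log2 fold change was -0.04 for Cst3 (SE 0.18, edgeR adjusted p = 0.966) and -0.40 for Cstb (SE 0.24, edgeR adjusted p = 0.673). Neither secreted nor cytosolic cystatin shared the separation of Cst7 by Tyrobp genotype.

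**Figure D3:**
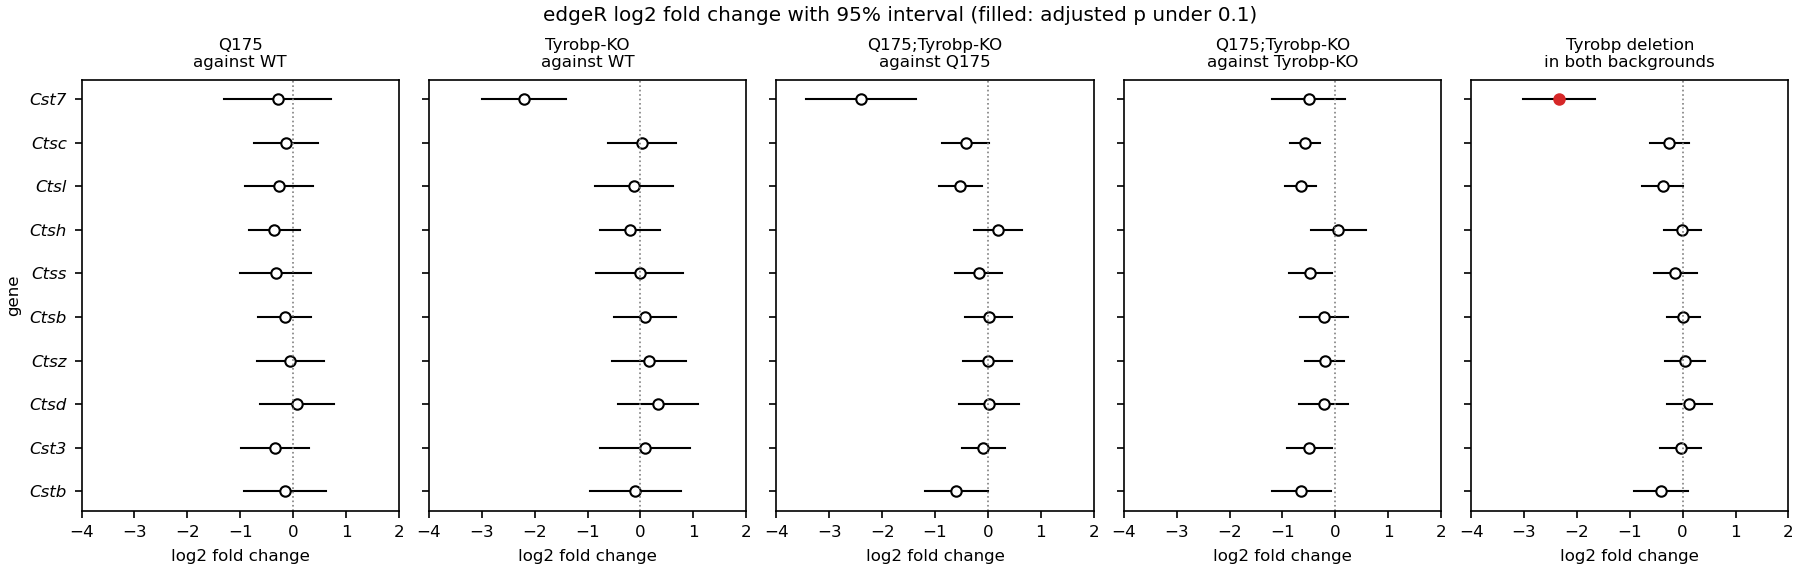
Points are log2 fold changes of the 10 genes by edgeR in 5 comparisons, with lines for the 95% interval, and a filled point marks an adjusted p under 0.1. Cst7 stands apart to the left wherever samples without Tyrobp are set against samples with it, between -2.20 and -2.40, and is the single filled point, in the model over both backgrounds.

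Members other than Cst7 were read in the remaining comparisons in the same way. In Q175 against WT no member was called by edgeR or DESeq2 (0% and 1.28% of all genes called), and none had an unadjusted p under 0.05 against 6.24% of genes. In that comparison all genes had a median log2 fold change of -0.02, with 9728 of 18266 below 0. The 10 members had a median of -0.22, with 9 of 10 log2 fold changes below 0. The largest was that of Ctsh, at -0.35 (SE 0.23, edgeR adjusted p = 0.960). In Tyrobp-KO against WT, Cst7 was the only member with an unadjusted p under 0.05 (6.82% of genes), and in Q175;Tyrobp-KO against Q175 it was joined by Ctsl (8.01% of genes). Ctsl there had a log2 fold change of -0.52 (SE 0.19, edgeR adjusted p = 0.533). No member had an interaction with an unadjusted p under 0.05, as 6.01% of genes did, and edgeR called 0% and DESeq2 0.0107% of genes for it.

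The lowest levels of several members were in Q175;Tyrobp-KO microglia, seen best against Tyrobp-KO alone. edgeR called none of the 10 members and 0% of genes in that comparison. A group of 5 members, Ctsl, Ctsc, Cstb, Cst3 and Ctss, had an unadjusted p under 0.05, a share reached by 13.2% of all genes, and all were lower. The log2 fold changes were -0.65 for Ctsl (SE 0.13, edgeR adjusted p = 0.291), -0.57 for Ctsc (SE 0.13, edgeR adjusted p = 0.291), -0.64 for Cstb, -0.49 for Cst3 and -0.47 for Ctss. DESeq2 called Ctsl, Ctsc, Cst3 and Ctss, together with 3.84% of all genes. For the same 4 genes the ranges of the groups did not overlap, as for 9.04% of genes. The level of the 10 astrocyte markers, defined as above and not in CPM, was 491 to 2631 in the 3 Tyrobp-KO samples. In the 5 Q175;Tyrobp-KO samples it was 486 to 2120. That of 5 markers of border-associated macrophages was 27.1 to 37.5 against 8.87 to 27.5. For 7 markers of monocytes and neutrophils it was 65.0 to 157 against 31.2 to 107. Of these 5 and 7 markers, 1 each reached 1 CPM in every sample. The level of 4 choroid plexus markers went the other way, at 2.36 to 8.38 against 22.2 to 270. Microglia markers were at 15281 to 24641 against 14207 to 20037. Among all the marker lists, choroid plexus alone did not overlap between these groups. When edgeR also took account of non-microglial marker levels, the same 5 members had an unadjusted p under 0.05, and none was called. In that fit 3437 of 17723 genes had such a p, against 2344 without the term. Ctsl was then at -0.65 and Ctsc at -0.58 (edgeR adjusted p = 0.131 for both).

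Set against its targets, Cst7 was lower in every sample without Tyrobp. Its level was expressed as a percentage of the summed level of Ctsc, Ctsh, Ctsl and Ctss, all per kb, a ratio on which the library scaling has no bearing. It was 0.569, 0.376, 0.206, 1.23 and 0.868% in the WT samples, named in the order used for Cst7 above, and 0.367, 0.257, 0.254, 0.823 and 0.809% in the Q175 samples. It was 0.115, 0.108 and 0.132% in the Tyrobp-KO samples, and 0.0799, 0.101, 0.121, 0.0992 and 0.175% in the Q175;Tyrobp-KO samples. The highest ratio without Tyrobp was below the lowest with it. The mean log2 ratio of Q175;Tyrobp-KO minus that of Q175 was -1.98 (0 of 25 pairs of samples higher), and that of Tyrobp-KO minus that of WT was -2.20 (0 of 15 pairs). No test was made of the ratio.

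The summed targets differed less between groups. The 4 targets together had a mean of 3008 CPM per kb in WT (SD 1140, n = 5) and 2999 in Tyrobp-KO (SD 180, n = 3). The mean was 2443 in Q175 (SD 649, n = 5) and 2181 in Q175;Tyrobp-KO (SD 388, n = 5). Between Q175;Tyrobp-KO and Tyrobp-KO the sum differed by -0.48 on the log2 scale (0 of 15 pairs higher), while the Cst7 ratio differed by -0.09. Ctss makes up most of this sum. Between Q175 and WT the ratio differed by -0.31 and the sum by -0.24, both with overlapping groups.

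**Figure D4:**
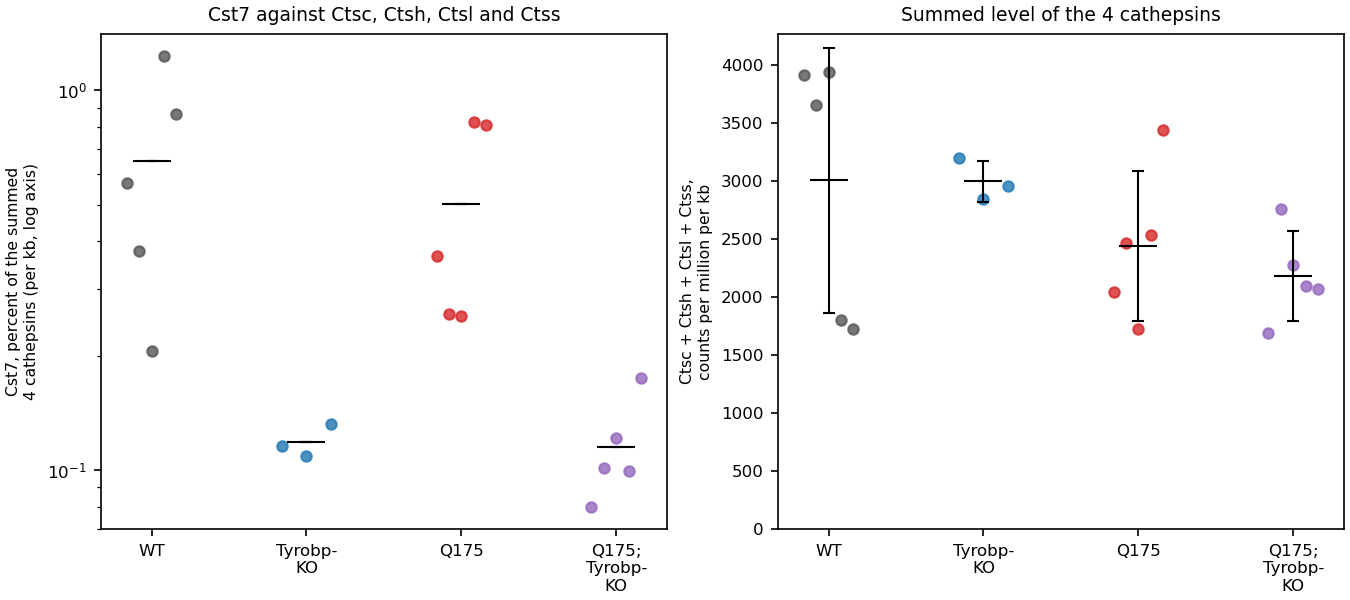
The left panel gives Cst7 as a percentage of the summed level per kb of Ctsc, Ctsh, Ctsl and Ctss in each sample on a log axis, and the right panel that sum in CPM per kb from 0, with lines for means and, at right, bars for the SD. All 8 samples without Tyrobp lie at or below 0.175% and all 10 with it at or above 0.206%, while the sums at right overlap between samples with and without Tyrobp.

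The other 9 members divided over the 18 samples into 2 sets that varied together, a grouping made after the values were seen. In the first, Ctss, Ctsl, Ctsc, Cst3 and Cstb, the 10 pairs had a Pearson r of log2 CPM between 0.68 and 0.96. In the second, Ctsb, Ctsd, Ctsh and Ctsz, the 6 pairs had an r between 0.67 and 0.98. Across the sets the 20 pairs lay between -0.39 and 0.22. The log2 ratio of Ctsd to Ctsz, the closest pair, had an SD of 0.11 over all samples, and that of Ctsl to Ctsc one of 0.14, whereas that of Ctss to Ctsd had one of 0.70. Every point shares its library with the others, so these values describe the libraries.

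The difference between the sets spanned a wide range within 3 of the 4 groups. The mean log2 CPM of the first set minus that of the second ran from -1.20 to 0.59 in WT and from -1.09 to 0.67 in Q175. It ran from -0.71 to 0.36 in Tyrobp-KO but no further than from -0.96 to -0.67 in Q175;Tyrobp-KO microglia. Libraries also differed in how far they leaned to GC-rich genes, taken over 10030 other genes as the median log2 deviation of the 25% richest in GC minus that of the 25% poorest. That lean ran from -0.44 to 0.59 in WT and was correlated with the difference between the sets, with r = -0.63 over the 18 samples. The r with the lean was -0.86 for Ctss, -0.83 for Ctsc, -0.74 for Ctsl, -0.73 for Cstb and -0.70 for Cst3, but -0.10 for Cst7. In the second set it was 0.27 for Ctsd, 0.28 for Ctsz, -0.07 for Ctsb and -0.16 for Ctsh. The principal transcripts of Ctsc, Ctsl and Ctss have 43.9, 44.3 and 45.9% GC and those of Ctsd and Ctsz 55.9 and 57.3%, but Cst3 has 57.2%. Tyrobp-KO libraries leaned between -0.19 and -0.10 and Q175;Tyrobp-KO libraries between -0.23 and 0.25. A like measure of long against short transcripts had an r of -0.56 with the difference between the sets. Whether either measure gave rise to the 2 sets was not tested.

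With the lean as a term in edgeR, Ctsl and Ctsc alone among members kept an unadjusted p under 0.05 in Q175;Tyrobp-KO against Tyrobp-KO. Their log2 fold changes were -0.60 and -0.41 (edgeR adjusted p = 0.601 for both). Over all genes, 1459 of 17723 had such a p in that fit, against 2344 without the term. With the lean as a term Cst7 had -2.35 over both backgrounds, with an edgeR adjusted p of 0.00403. The Cst7 difference was as large with the term as without it. Over both backgrounds Ctsl, Ctsc and Cstb then also had an unadjusted p under 0.05, but none was called. Their log2 fold changes were -0.39, -0.27 and -0.39 (edgeR adjusted p = 0.357, 0.400 and 0.436). Over all genes, 2116 of 18613 had such a p with the term and 1639 without it. In Q175 against WT the term moved Ctsc from -0.14 to 0.06 and Cstb from -0.15 to 0.11. Ctss, Ctsl and Cst3 were then at -0.08, -0.03 and -0.13, while Ctsh and Cst7 stayed at -0.34 and -0.30.

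**Figure D5:**
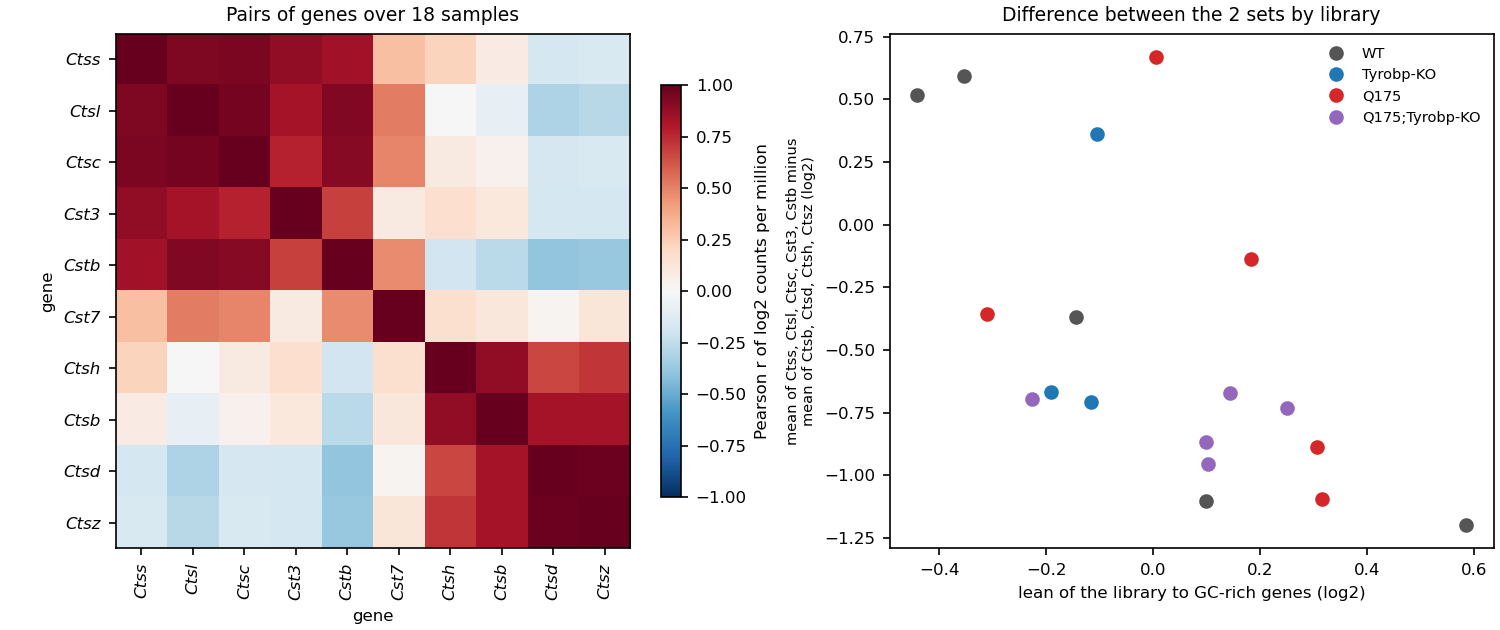
The left panel colours the Pearson r of log2 CPM over 18 samples for each pair of genes, from -1 (blue) to 1 (red), and the right panel plots for each sample the mean of the first set minus that of the second, in log2, against the lean of its library to GC-rich genes. Red blocks mark the 2 sets, with pairs at 0.67 or more inside them, and the points at right fall from upper left to lower right with r = -0.63.

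Over all 18 samples, the genes whose pattern was most like that of Cst7 were no cathepsins. Among 16716 genes with 1 CPM in 5 or more samples, the highest Pearson r with Cst7 were those of Ccl3 (0.95), a chemokine, Ch25h (0.95), the cholesterol 25-hydroxylase, St8sia6 (0.93), a sialyltransferase, Clec7a (0.93), the receptor dectin-1, and Igf1 (0.92). Within the 10 samples with Tyrobp these 5 had an r between 0.83 and 0.95. Within the 8 samples without it the order was another, with an r of 0.87 for Ccl3, 0.61 for Ch25h, 0.46 for St8sia6, 0.29 for Igf1 and 0.28 for Clec7a, beside 0.77 for Ctss, 0.76 for Ctsc and 0.75 for Ctsl. Over all 18 samples the highest r among members was that of Ctsl, at 0.51, and the lowest that of Ctsd, at 0.03. Genotype separates the 18 points into a lower and an upper group, which raises r for any gene that differs between them.

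Related genes were counted from lists, again chosen with results of these data known. Of 15 other cathepsins, 5 reached 1 CPM in a sample. Ctsa, a carboxypeptidase that also protects other lysosomal enzymes, was the highest, with 377 ± 95.3 CPM (SD, n = 18), and its log2 fold change with Tyrobp deletion was 0.16 (edgeR adjusted p = 0.836). None of the 5 was called by edgeR in any comparison. DESeq2 called Ctse, an intracellular aspartic protease, lower in Tyrobp-KO than in WT and with Tyrobp deletion over both backgrounds, at means of 1.59 and 0.281 CPM in WT and Tyrobp-KO. Of 21 other cystatins, 19 were in the table and Cst6 and Kng2 alone reached 1 CPM in any sample, both with medians under 1 CPM in all samples together. Cst3, Cstb and Cst7 were thus the only cystatins detected above that level in every sample.

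Of 6 genes for other protease inhibitors and legumain, none was called by edgeR. Lgmn, legumain, which processes cathepsins to their 2-chain forms, had 1292 ± 299.9 CPM (SD, n = 10) with Tyrobp and 1617 ± 323 CPM (SD, n = 8) without it, a log2 fold change of 0.31 (edgeR adjusted p = 0.585). All 6 genes of the mannose 6-phosphate route, which carries proenzymes to lysosomes, were detected and none was called by edgeR. Their median log2 fold change with the deletion was -0.10. Igf2r, the large mannose 6-phosphate receptor, was called lower over both backgrounds by DESeq2 alone, at 17.7 ± 2.81 CPM (SD, n = 10) with Tyrobp and 12.2 ± 2.97 CPM (SD, n = 8) without it.

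Of 18 genes of disease-associated microglia, 5 were lower with Tyrobp deletion at an edgeR adjusted p under 0.1, namely Spp1, Clec7a, Lpl, Igf1 and Csf1, and none was higher, beside 0.161% of all genes called. The call of Csf1 was lost when libraries were scaled by total counts (edgeR adjusted p = 0.162) and without Tyrobp-KO replicate 15, 19 or 20 or Q175;Tyrobp-KO replicate 13 (0.103 to 0.155). Clec7a had a log2 fold change of -2.30 (edgeR adjusted p = 0.00113) and Igf1 of -2.59 (edgeR adjusted p = 0.0308), beside -2.34 for Cst7. The median of the 18 was -0.73 and that of all genes -0.02. In Q175 against WT none of the 18 was called, and their median was -0.11.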

How the data were processed

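RNA-seq of CD11b-selected striatal microglia was analysed in 18 samples of 4 genotypes. The authors isolated RNA from striatum of each mouse after bead selection, made libraries with a SMART-Seq v4 kit that does not keep strand, used STAR for alignment against GRCm38 and featureCounts for gene counts. What they deposited are raw counts per gene, and DESeq2 is also named in the submitters' processing notes, without versions. The annotation version was not given in the sources used here, and all 55536 identifiers matched GENCODE M21. Per-sample totals were 11260410 to 29771983 counts. A further 2 columns with no sample in the labels were not used.

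Groups were tested with edgeR 4.0.16 in R 4.3.3 (quasi-likelihood test, TMM scaling, genes reaching 1 CPM in 1 or more samples of a fit, Benjamini-Hochberg false discovery rate 0.1). Comparisons of groups used those groups only. The effect of Tyrobp deletion over both backgrounds came from an additive model of both alleles on all samples, and their interaction from a further term. Printed CPM used TMM factors over all samples. Levels between genes were divided by merged exonic length. DESeq2 1.42.0, other scalings and filters, sex, a score of non-microglial markers, 1 fit over 4 groups and leaving out each sample were alternatives. The lean of libraries to GC-rich genes (genes with a mean of at least 10 CPM) and the length of the principal transcript were added after seeing the data. On simulated counts with 200 genes changed by a log2 fold change of 1, the fit recovered 75.5% of them for Tyrobp deletion over both backgrounds. It recovered 63% in Q175;Tyrobp-KO against Q175 and 3.5% in Tyrobp-KO against WT. The share was 42.5% in Q175 against WT, 31.5% in Q175;Tyrobp-KO against Tyrobp-KO and 7.5% for the interaction.

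Named genes were all 10 members, Tyrobp, from each list those called in any comparison and otherwise up to 3 with the highest mean, and the 5 genes most correlated with Cst7. Igf2r and Ctse were named after their values were seen, because DESeq2 called them. The members and lists were chosen with earlier results of these data known. By the methods striata of each mouse were dissociated and 1 striatum was used per sample, whereas the labels give a pair of striata. Neither says that each sample was a separate animal, so p-values may measure technical spread. Promoter windows of 250 bases were taken from RefSeq.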

Additional observations from a re-analysis of the deposited data

Results flagged for a closer look

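Ctsh in WT replicate 2 had 355.5 CPM, far above the other 4 WT samples, which lay between 251 and 274 CPM. Cst3 in Q175 replicate 9 had 4580 CPM, below the other 4 Q175 samples, which lay between 6264 and 6842 CPM. The rule compares the gap to the nearest sample with the range of the group, and it was applied to 33 groups of 5 samples. Chance flags about 1 in 20 such groups. None of the 10 interaction tests of members passed the threshold.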

How the results depend on the processing

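The call of Cst7 over both backgrounds held under all 8 alternatives and all 18 left-out samples, with edgeR or DESeq2 adjusted p between 4.46e-10 and 0.00910 and log2 fold changes between -2.46 and -2.11. In Q175;Tyrobp-KO against Q175 the number of members called was 0 with the reported settings and 1, Cst7, with DESeq2 and with 1 fit over all 4 groups. In Tyrobp-KO against WT it was 0, and 1, again Cst7, with DESeq2 and with no filter, and between 0 and 1 when 1 sample was left out, the call appearing without WT replicate 6. In Q175;Tyrobp-KO against Tyrobp-KO it was 0, and 4 with DESeq2. The cause was not tested. Over 1240 fold changes of members under alternatives, 123 changed sign, none of them called, and 9 became called. The ratio of Cst7 to its targets kept its sign in the comparisons of Tyrobp genotype, at log2 differences between -2.55 and -1.71. Over all genes, edgeR and DESeq2 called 0 and 234 in Q175 against WT, 2 and 41 in Q175;Tyrobp-KO against Q175, 4 and 168 in Tyrobp-KO against WT, 0 and 680 in Q175;Tyrobp-KO against Tyrobp-KO, 30 and 151 for Tyrobp deletion over both backgrounds and 0 and 2 for the interaction. With no filter edgeR called 9 and 15 in Q175;Tyrobp-KO against Q175 and Tyrobp-KO against WT, with 1 fit over 4 groups 14 and 8, and with the marker score as a term 1 and 2. Sex as a term left 1 in the first of these. Scaling by total counts moved the genes with an unadjusted p under 0.05 in Q175;Tyrobp-KO against Q175 from 623 of 1446 higher to 1194 of 1645, and the median interaction to 0.15. Among named list genes, Csf1 lost its call with total counts (adjusted p = 0.162) and without any 1 of the Tyrobp-KO samples or Q175;Tyrobp-KO replicate 13 (0.103 to 0.155). No paired analysis was possible because the 4 groups have no replicate numbers in common. Tyrobp-KO holds 3 samples, and Cst7 without Tyrobp rests on 22 to 83 reads a sample.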
